A study of Mus musculus with 2 samples.

Results

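Neighbouring genes can meet so closely that 1 stretch of chromatin lies at an end of both. The islands described here are stretches of clustered reads of a TCF-1 profile in mouse lymphoid tissue inducer (LTi) cells whose midpoint lay within 1 kb of a start or end coordinate of at least 2 protein-coding genes. They number 1207 of the 19513 nuclear islands with fewer than 200 reads of the peak library (6.19%), out of 19531 islands in all. They are set against the 5786 islands (29.7%) at an end of 1 gene only, and against the 12520 at no gene end. Of the 1207 islands, 1188 lay at ends of 2 genes and 19 at ends of 3. They touch 2360 of 21887 protein-coding genes. No island was lost to the read limit, since none of the 15 nuclear islands at or over 200 reads lay at any gene end.

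LTi cells, a kind of innate lymphoid cell, start the building of Peyer's patches and lymph nodes. In ChIC-seq (chromatin immunocleavage sequencing) an antibody, here to TCF-1, brings micrococcal nuclease to chromatin, and the DNA cut free around the bound protein is read. The series has 2 libraries of 500 fixed cells of C57BL/6 mice. The cells of 1 library were Tcf7+/+ and from Peyer's patches. Those of the other were Tcf7fl/fl-VavCre, in which Vav-driven Cre acts in blood cells, and were taken from small intestinal lamina propria. Both were sorted as Lin-CD127+KLRG1-NK1.1-NKp46-CCR6+. The labels give neither the age nor the number of mice. Genotype and tissue cannot be told apart, and with 1 library of each there is no replicate check and no test between them.

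The table names its 2 read columns peak and control, and no header ties either to a genotype, so no direction between genotypes is drawn. Over all islands they hold 483771 and 189291 reads, and how deep the full libraries were is unknown. A fold is the reads of the peak library divided by those of the control library times 1.997, the factor the caller used. Intervals are exact 95% intervals and cover counting error only, since reads copied by PCR are not independent molecules. ChIC-seq shows where reads lie and not which genes are expressed, so the markers of the sort cannot be checked in these islands.

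Genes are transcribed from a start, the head, to an end, the tail. Head-to-head neighbours are read outwards from a shared stretch, a bidirectional promoter, and such pairs are common among genes for DNA repair, mitochondria and protein folding. Tail-to-tail neighbours are read towards each other, and head-to-tail neighbours follow each other on 1 strand. TCF-1, the product of Tcf7, is an HMG-box factor that binds DNA in T cells and innate lymphoid cells, both at promoters and at distal elements.

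The stretches between the starts of 6 head-to-head pairs are printed because the results turn on such shared promoters. They are among the pairs named here whose starts are 20 to 250 bases apart, taken from the top by peak-library reads. The sequences are those of RefSeq, GRCm38.p6 (mm10), on the plus strand and 5′ to 3′. Capitals mark the motifs searched on both strands: CCAAT of NF-Y, CCGGAAG of ETS factors, CTTTGAT and CTTTGAA of TCF/LEF factors, the TATA box TATAAA, the NRF1 and YY1 motifs, and TCGCGAGA, which was added after the stretches were seen.
Nfya and Oard1, chr17:48409821-48409956: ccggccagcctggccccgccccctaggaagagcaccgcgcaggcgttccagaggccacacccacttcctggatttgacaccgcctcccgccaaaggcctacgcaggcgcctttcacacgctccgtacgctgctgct
Atp5pb and Wdr77, chr3:105959264-105959497: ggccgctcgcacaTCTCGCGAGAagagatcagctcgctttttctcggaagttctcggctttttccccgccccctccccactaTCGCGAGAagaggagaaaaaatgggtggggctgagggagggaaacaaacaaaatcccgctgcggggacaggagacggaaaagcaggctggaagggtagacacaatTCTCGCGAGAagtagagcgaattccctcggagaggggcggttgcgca
Cbx5 and Hnrnpa1, chr15:103239905-103239942: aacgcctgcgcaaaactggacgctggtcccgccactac
Nop14 and Grk4, chr5:34660149-34660249: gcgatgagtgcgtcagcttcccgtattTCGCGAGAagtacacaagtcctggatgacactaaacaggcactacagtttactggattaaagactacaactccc
Vmac and Ndufa11, chr17:56717700-56717761: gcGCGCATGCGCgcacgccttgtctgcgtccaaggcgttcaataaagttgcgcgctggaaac
Tsacc and Cct3, chr3:88297000-88297134: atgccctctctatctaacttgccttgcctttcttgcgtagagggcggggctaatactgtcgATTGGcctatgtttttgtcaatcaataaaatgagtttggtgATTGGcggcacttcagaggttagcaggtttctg

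The first named gene of each pair is on the minus strand and the second on the plus strand, and each stretch lies outside both genes. The 234 bases between Atp5pb, which encodes a subunit of ATP synthase, and Wdr77, which encodes a partner of the arginine methyltransferase PRMT5, hold TCGCGAGA at 3 places, 2 of them as the palindrome TCTCGCGAGA. The stretch of Nop14, a gene for ribosome assembly, and Grk4, a receptor kinase gene, holds it once. The 62 bases between Vmac and Ndufa11, a gene of respiratory complex I, hold the NRF1 motif, and the 135 bases between Tsacc and Cct3, a subunit of the chaperonin that folds actin and tubulin, hold CCAAT at 2 places, read on the other strand as ATTGG. The TCF/LEF motifs are in none of the 6 stretches, which says only that these letters are not in these windows.

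How often neighbour genes shared an island differed with their arrangement. Strand was known for 17492 of the 21887 genes. There were 4810 pairs of protein-coding genes with ends at most 2 kb apart, and 1243 of them (25.8%) had an island within 1 kb of both ends. In 1681 of the 4810 pairs the strand of a gene was not known, so their arrangement was not classed. Of these, 301 had an island (17.9%). Of 645 head-to-head pairs with their starts apart, 469 had one (72.7%, 95% interval 69.1 to 76.1). Head-to-head pairs whose starts overlap had one in 221 of 360 cases (61.4%, 56.1 to 66.4). Same-strand pairs that follow head to tail had one in 188 of 902 cases (20.8%, 18.2 to 23.6), and tail-to-tail pairs in 23 of 1049 (2.19%, 1.39 to 3.27).

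Starts and ends without a neighbour give the level for single genes. Of 14072 starts with no other gene end within 2 kb, 4076 had an island within 1 kb (29.0%, 28.2 to 29.7), and of 13828 such ends of transcription 254 had one (1.84%, 1.62 to 2.07). The share of tail-to-tail pairs lay near that of lone ends, with overlapping intervals. The share of head-to-head pairs lay above that of lone starts, with intervals far apart. These shares are per pair and per lone gene end, so their units differ. Gene ends and pairs are not replicates of a condition, so these intervals describe the 2 libraries.

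**Figure D1:**
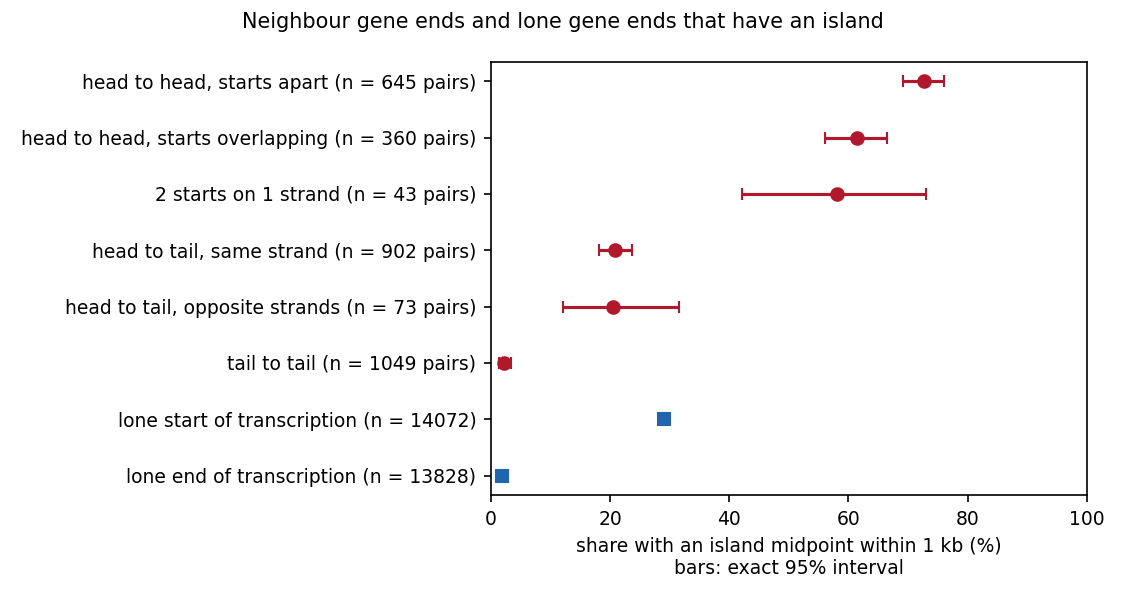
Share of neighbour gene pairs (circles, ends at most 2 kb apart) and of lone gene ends (squares) with an island midpoint within 1 kb, in percent, with exact 95% intervals as bars. Head-to-head pairs stand at 72.7% and 61.4%, lone starts at 29.0%, head-to-tail pairs on 1 strand at 20.8%, and tail-to-tail pairs at 2.19%. Pairs in which the strand of a gene was not known are left out.

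The distance between the starts moved with this share. Among head-to-head pairs with starts apart, 78.5% of the 288 with at most 100 bp between their ends had an island, 84.1% of the 251 at over 100 and up to 500 bp and 30.2% of the 106 at over 500 and up to 2000 bp. The window within 1 kb of both starts narrows as the starts move apart. For pairs at most 100 bp apart it is almost as wide as that of a lone start, so in width 78.5% (73.3 to 83.1) is nearest to 29.0%. The units still differ, since a pair holds the starts of both its genes and a lone start that of a single gene. Whether the share per start is higher in pairs was not tested. Head-to-tail pairs stood at 32.1% (21.9 to 43.6) at that distance, and tail-to-tail pairs at 3.35% (1.36 to 6.78).

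CpG content moved with these shares too. CpG is depleted in most of the genome but kept in CpG islands, where many broadly used promoters lie. In the promoter windows, 250 bases before to 50 after a start, the median ratio of observed to expected CpG was 0.84 over the 1314 genes of head-to-head pairs with a shared island and 0.75 over the 521 genes of such pairs without an island at an end. It was 0.799 over the 4357 genes whose start alone lay at an island and 0.577 over all 17492 genes with a window. Where every window of the pair or lone start had a ratio of 0.6 or more, a split chosen after the data were seen, 389 of 474 head-to-head pairs with starts apart had an island (82.1%, 78.3 to 85.4), against 3255 of 6103 lone starts (53.3%, 52.1 to 54.6). With starts at most 100 bp apart the first share was 82.4% (77.0 to 86.9). Below 0.6 the shares were 19 of 65 pairs (29.2%, 18.6 to 41.8) and 821 of 7969 lone starts (10.3%, 9.64 to 11.0). At both levels the head-to-head pairs stood above the lone starts, counted per pair and not per start. With starts at most 100 bp apart and a ratio below 0.6 there were 4 of 13 pairs (30.8%, 9.09 to 61.4), an interval that includes the share of lone starts. Of the 645 pairs, those with 1 window on each side of 0.6 entered neither level.

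Sorted by arrangement, the 1207 islands were mostly at starts. In 658 the genes lay head to head, 445 with the starts apart and 213 with the starts overlapping, and in 176 they followed head to tail on 1 strand. A further 18 lay at 2 starts on 1 strand, 13 at a head and a tail on opposite strands, 19 at 2 tails, 17 at both ends of a short gene and its neighbour, 19 at 3 genes, and 1 at 2 ends on 1 strand. In the remaining 286 the strand of a gene was not in the table used. Where head-to-head starts were apart, the median stretch between them was 101 bases (quartiles 49 and 224). The island held both starts in 605 of the 658 cases (91.9%), and its midpoint lay a median of 264 bp from the point halfway between the starts.

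Islands at shared ends held more reads than islands at 1 gene end in both libraries. The peak library gave them a median of 22 reads (quartiles 16 and 31, range 7 to 92) and islands at 1 end a median of 19 (14 and 28, range 7 to 140). The control library gave a median of 7 reads (5 and 12, range 0 to 54) against 6 (4 and 10, range 0 to 102). Islands at no gene end held the fewest, with medians of 14 and 4 reads. The quartile ranges of the first 2 classes overlap broadly in both libraries, so a single island cannot be told by its reads. The median width was 1600 bp in both classes. Per kb of island the medians were 14.4 against 13.1 peak-library reads and 5.00 against 4.29 control-library reads. The peak-library median was higher at shared ends on 19 of the 20 chromosomes that hold both classes, and the control-library median on 15.

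**Figure D2:**
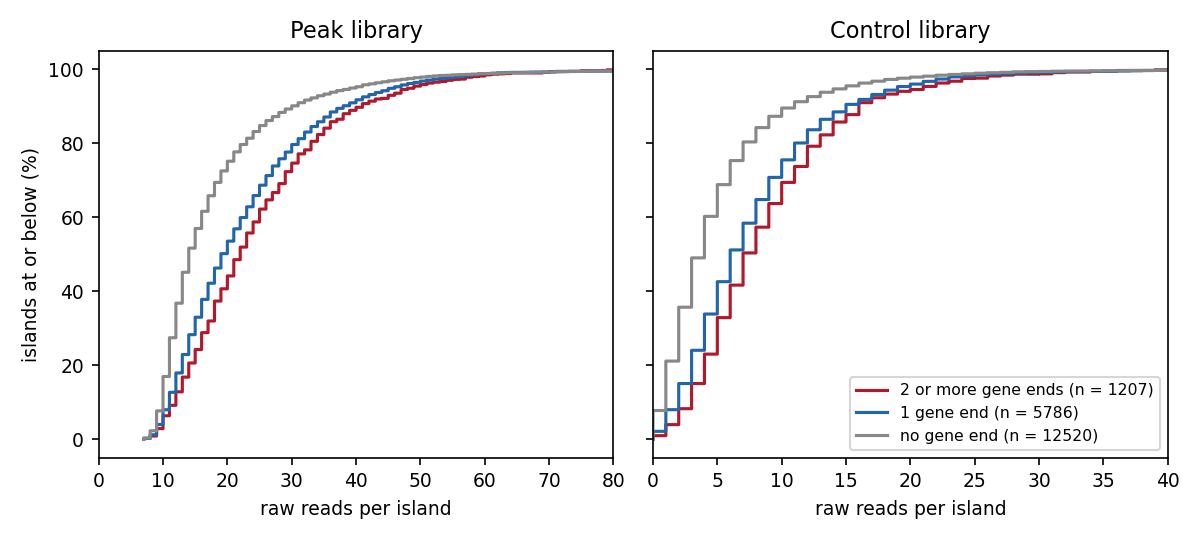
Cumulative share of islands in percent (vertical axis) by raw reads per island (horizontal axis) in the peak library and the control library, for islands at 2 or more gene ends, at 1 gene end and at no gene end. The axes end at 80 and 40 reads. In both libraries the curve of shared ends lies to the right, with medians of 22 and 7 reads, followed by 19 and 6 reads at 1 gene end and 14 and 4 at none.

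The control library gained slightly more than the peak library, so the ratio between them was lower at shared ends. Summed, the 1207 islands held 29754 against 10735 reads, or 1.39-fold (95% interval 1.36 to 1.42). Islands at 1 end held 131270 against 45043 reads, or 1.46-fold (1.44 to 1.48), and islands at no end stood at 1.78 (1.76 to 1.79). The intervals of the first pair do not overlap at this distance limit. With gene ends within 500 bp they do, at 1.42 (1.38 to 1.46) against 1.44 (1.42 to 1.46), and likewise in islands with at least 20 peak-library reads, at 1.38 (1.35 to 1.42) against 1.41 (1.40 to 1.43). They also leave out the spread between islands, whose folds had quartiles of 1.10 and 2.07 at shared ends and 1.16 and 2.34 at 1 end. The pooled fold was lower at shared ends on 15 of 20 chromosomes. When only starts were compared, head-to-head islands stood at 1.38 (1.34 to 1.42) and islands at 1 start at 1.44 (1.42 to 1.46), with intervals that meet. The size of a fold depends on the scaling: with equal totals of the table the pooled folds were 1.08 at shared ends and 1.14 at 1 end. No island held fewer than 7 peak-library reads, while control-library reads went down to 0. A stretch with few control reads is thus among the islands only where its peak reads reached that floor. How far this floor moves the folds of classes with few control reads was not tested.

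The pooled fold fell with width at 1 gene end but had no single direction at shared ends, and both classes were compared within steps of width. In islands of 600 bp or less the pooled fold was 1.41 (1.25 to 1.58) at 90 shared ends and 1.74 (1.65 to 1.84) at 540 single ends. At 800 to 1200 bp it was 1.47 (1.39 to 1.54) against 1.58 (1.54 to 1.62), at 1400 to 2000 bp 1.42 (1.37 to 1.48) against 1.47 (1.44 to 1.50), and over 2000 bp 1.32 (1.28 to 1.37) against 1.38 (1.35 to 1.40). The value at shared ends was the lower one in all 4 steps, with intervals that overlap in the 2 widest and meet in the step before.

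**Figure D3:**
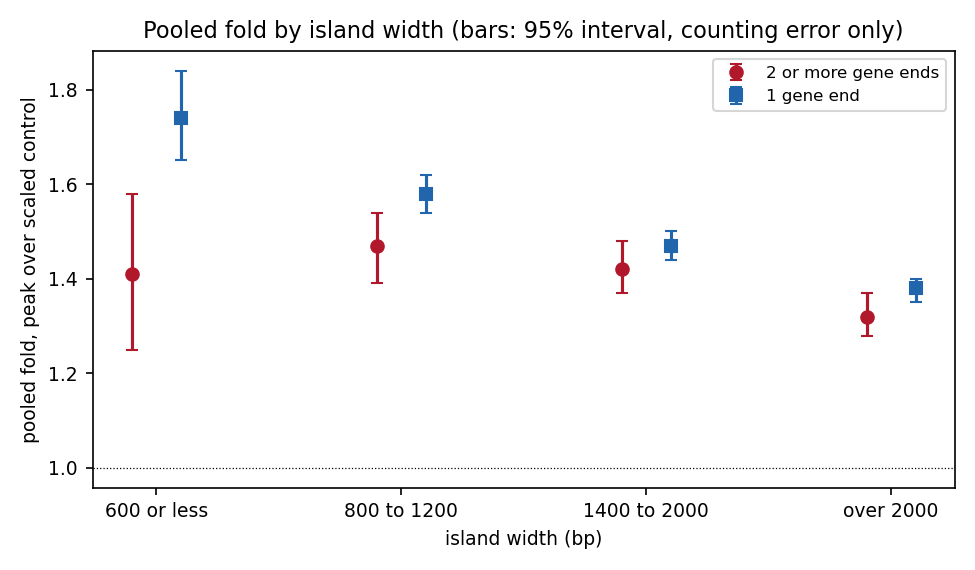
Pooled fold of peak-library over scaled control-library reads (vertical axis) by island width in bp, for islands at 2 or more gene ends (circles) and at 1 gene end (squares), with exact 95% intervals for counting error. The folds run from 1.32 to 1.47 at shared ends and from 1.38 to 1.74 at 1 gene end, the lower value being that of shared ends in each step.

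The share that passed the caller's test was below that of all islands. By the authors' deposited table, 612 of the 1207 had an FDR of 0.05 or less (50.7%, 47.8 to 53.6), against 62.6% of all 19513 nuclear islands and 54.7% (53.4 to 56.0) of islands at 1 end, whose interval overlaps the first. Head-to-head islands stood at 51.2% (47.3 to 55.1) and islands at 1 start at 53.0% (51.5 to 54.5) in the authors' deposited table. At an FDR of 1e-05 or less in the authors' deposited table the shares were 9.36% at shared ends, 14.0% at 1 end and 20.7% of all. A fold below 1 was found for 192 (15.9%) islands at shared ends, 13.5% of those at 1 end and 10.1% of all. Without any control read were 12 islands at shared ends (0.994%), 2.16% at 1 end and 5.70% of all. The caller's test takes the control reads as known without error, which is a strong assumption at a median of 7 reads.

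Within the shared ends the arrangements differed in reads and in fold. Head-to-head islands had medians of 24 and 8 reads in the peak and control library, and head-to-tail islands on 1 strand had 19 and 7, with a pooled fold of 1.42 (1.34 to 1.52). The 19 tail-to-tail islands had medians of 15 and 4 reads and a pooled fold of 1.93 (1.51 to 2.51), and 16 of them passed an FDR of 0.05 in the authors' deposited table (84.2%, 60.4 to 96.6). Their interval lies above that of head-to-head islands, and overlaps that of the 294 islands at 1 end of transcription, which had 14 and 4 reads and a fold of 1.55 (1.47 to 1.63). Whether the floor of 7 peak-library reads bears on the fold and FDR share of such low-count islands was not tested. Chosen after their values were seen, Lrrc59/Eme1 is a tail-to-tail example with 17 against 1 reads, and Dnajc3/Uggt2 is the one with the most peak-library reads, 29 against 10. Among head-to-head islands with starts apart, the pooled fold was 1.42 (1.35 to 1.50) with at most 100 bases between the starts, 1.33 (1.26 to 1.40) at over 100 and up to 500, and 1.19 (1.06 to 1.34) in the 29 with more. Those 29 were also wider, at a median of 2200 bp against 1600 bp in both nearer steps, and width was not matched.

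**Figure D4:**
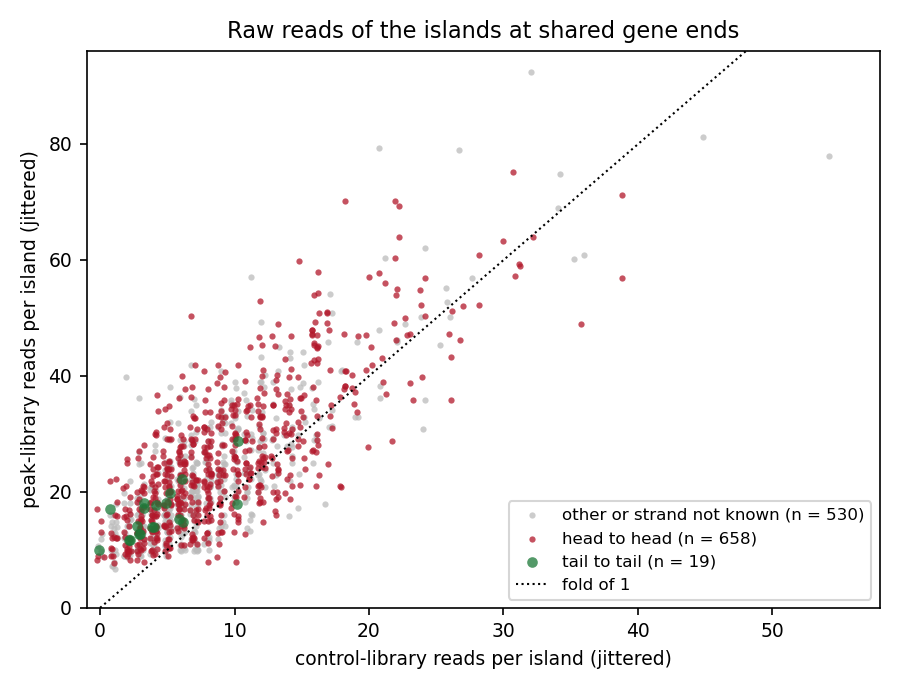
Peak-library reads (vertical axis) against control-library reads (horizontal axis) of each of the 1207 islands at shared gene ends, jittered by less than 1 read, with head-to-head and tail-to-tail arrangements in colour and a dotted line at a fold of 1. The 19 tail-to-tail islands sit at low counts, at 10 control reads or fewer and 10 to 29 peak reads, and the 5 islands with the most control reads lie under the line.

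Of the islands with the most reads, most had a fold whose interval includes 1. The most peak-library reads, 92 against 32, lay at the start that Rnase4 and Ang have in common on chromosome 14 at 51091077, and the fold was 1.44 (0.954 to 2.23). Both encode secreted ribonucleases, and the 2 gene models begin at the same base, so this start is 1 promoter and not a meeting of neighbours. Next came Rnf5/Agpat1 on chromosome 17, a ubiquitin ligase and a lipid acyltransferase gene, where 81 against 45 reads gave a fold of 0.901 (0.619 to 1.33). Tbc1d17/Akt1s1 on chromosome 7 had 79 against 27 reads, a fold of 1.47 (0.936 to 2.36). The histone genes H2ac21/H2ac20/H2bc21 had 79 against 21 reads, and their fold of 1.88 (1.15 to 3.21) is the one among the 8 islands with the most reads whose interval lies above 1. The most control-library reads, 54, lay at Cyb5d1/Naa38 on chromosome 11 beside 78 peak-library reads, a fold of 0.723 (0.505 to 1.04).

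The pairs whose stretches are printed above fall in this range. Nfya, a subunit of the CCAAT-binding factor NF-Y, and Oard1, an ADP-ribose hydrolase gene, meet on chromosome 17 in an island at 48408401 to 48411800 with 75 against 31 reads, a fold of 1.21 (0.787 to 1.91). Atp5pb/Wdr77 had 71 against 39 reads, a fold of 0.912 (0.608 to 1.38). The island of Cbx5, which encodes heterochromatin protein 1 alpha, and Hnrnpa1, an RNA-binding protein gene, had 59 against 31 reads. Nop14/Grk4 had 57 against 39 reads, Vmac/Ndufa11 had 51 against 17 and Tsacc/Cct3 had 47 against 23. Each of these 6 intervals includes 1, that of Vmac/Ndufa11 at 1.50 (0.853 to 2.77) having the highest fold.

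The highest folds among islands with at least 20 peak-library reads rested on 1 to 3 control reads. Bnip2/Gtf2a2 on chromosome 9 at 70010601 to 70014200 had 40 against 2 reads, a fold of 10.0 (2.60 to 85.5). Here the end of Bnip2, a gene of a BCL2-interacting protein, is followed on the same strand by Gtf2a2, which encodes a subunit of the general factor TFIIA. Rbak/Spdye4b and Utp15/Ankra2, both head to head, had 22 against 1 reads each, a fold of 11.0 (1.78 to 455). Fbxw2/Gm34653 had 26 against 2 reads and Cops2/Galk2 had 25 against 2. Folds picked as the highest overstate themselves. Of the islands without a control read, Gtf3c4/Ddx31 had 17 reads, which is at least 2.84-fold higher if each island's floor is 3 control reads, and Pno1/Wdr92 had 15, at least 2.50-fold higher. Counting also the error of the peak reads, their exact lower bounds were 2.07 and 1.80.

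The lowest folds were in islands of 400 to 1200 bp with nearly equal reads. Trim46/Krtcap2 on chromosome 3 had 8 against 10 reads in 400 bp, a fold of 0.401 (0.137 to 1.13). Elavl1/Ccl25 had 9 against 9 and Pinlyp/Xrcc1 had 8 against 8, both at 0.501. Pmf1/Slc25a44 had 18 against 17 reads in 1200 bp (0.530, 0.258 to 1.09). All of these intervals include 1.

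Genes of several basic cell functions had a higher share at shared-end islands than all genes. Beside the 10.8% of all protein-coding genes at such an island stood 12 of 28 RNA polymerase subunits (42.9%), 10 of 24 chaperones (41.7%), 32 of 79 mitochondrial ribosomal proteins (40.5%), 27 of 67 replication-dependent histones (40.3%), 17 of 45 DNA replication and repair genes (37.8%), 36 of 96 genes for oxidative phosphorylation and its assembly (37.5%), 13 of 35 aminoacyl-tRNA synthetases (37.1%) and 23 of 68 splicing factors (33.8%). Cytosolic ribosomal proteins stood at 18 of 87 (20.7%), proteasome subunits at 6 of 39 (15.4%) and the NF-kB and cytokine signalling list at 4 of 29 (13.8%). Zfp genes stood at 27 of 397 (6.80%) and the Wnt pathway and TCF partners at 1 of 28 (3.57%). None of the 26 LTi and ILC3 genes was at such an island, though 12 were at an island at 1 gene end, and none of the 10 B cell, 10 epithelial, 8 myeloid and 7 T cell markers was. Each of these lists is short, and whether a count of 0 differs from the share of all genes was not tested.

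These shares moved with how often a gene has a close neighbour at all. An end of another protein-coding gene lay within 2 kb of an end for 7048 of all genes (32.2%), but for 20 of the 28 polymerase subunits, 51 of the 79 mitochondrial ribosomal proteins and 6 of the 26 LTi and ILC3 genes. Of the genes with such a neighbour, 33.5% were at a shared-end island. Among listed genes with a neighbour this was 13 of 19 tRNA synthetases (68.4%), 32 of 51 mitochondrial ribosomal proteins (62.7%), 10 of 16 chaperones (62.5%), 36 of 59 oxidative phosphorylation genes (61.0%) and 0 of the 6 LTi and ILC3 genes. Splicing factors, polymerase subunits, replication and repair genes and histones stood at 50.9% to 60.5%. Nearer to all genes were 18 of 45 cytosolic ribosomal proteins (40.0%), 6 of 17 proteasome subunits (35.3%) and 27 of 81 Zfp genes (33.3%). Lower were 4 of 15 NF-kB and cytokine signalling genes (26.7%) and 1 of 8 Wnt list genes (12.5%). The lists are compared by counts only, and genes of 1 pair are counted in the same island. The 33.5% covers all arrangements, and the lists were not split by arrangement or CpG. Whether they differ from other genes of the same arrangement was not tested.

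**Figure D5:**
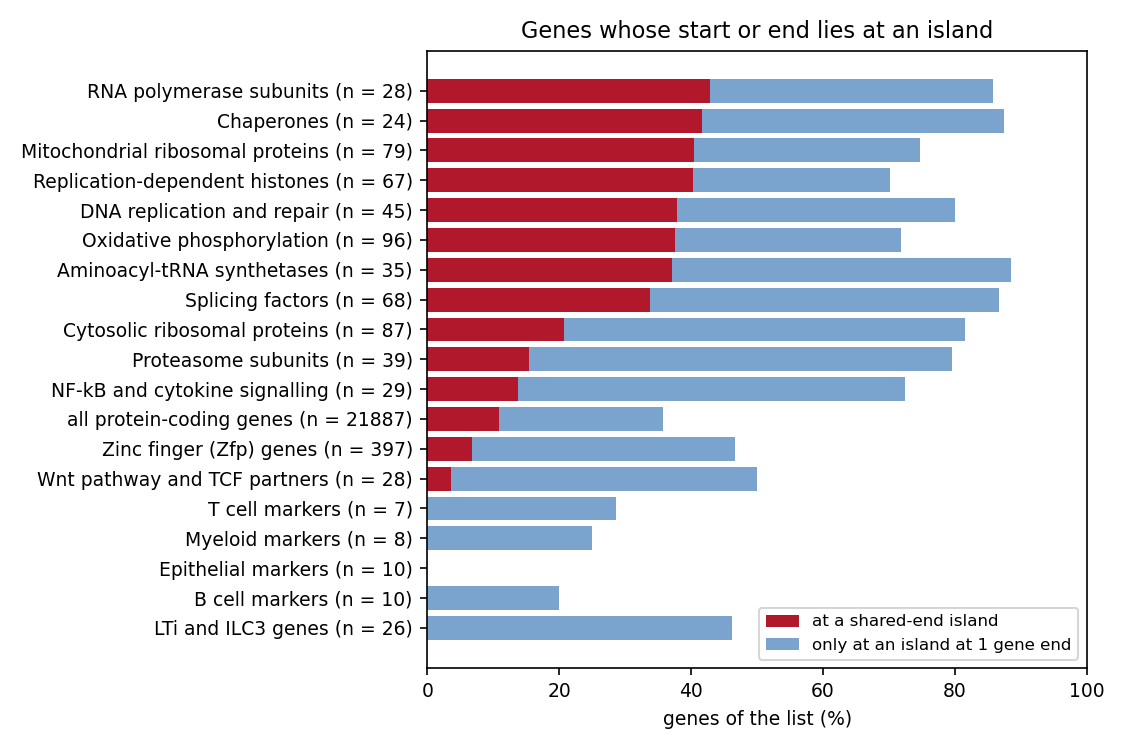
Share of the genes of each list, in percent, at an island of shared gene ends (red bars) or only at an island at 1 gene end (blue bars added to them). RNA polymerase subunits, chaperones and mitochondrial ribosomal proteins stand at 40.5% to 42.9% for shared ends, all protein-coding genes at 10.8%, and the LTi and ILC3 genes and the markers of other cells at 0.

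Pooled over their islands, 3 lists of cell maintenance genes with at least 10 islands had folds whose intervals include 1. The 10 chaperone islands had a pooled fold of 1.11 (0.911 to 1.36) and included Pradc1/Cct7 with 52 against 24 reads and Aptx/Dnaja1 with 45 against 16. The 16 islands of replication and repair genes stood at 1.12 (0.934 to 1.35). Among them Pcna/Cds2, at the gene of the sliding clamp of DNA polymerases, had 38 against 18 reads. Vps35/Orc6, at a subunit of the origin recognition complex, had 35 against 7 (2.50, 1.10 to 6.68). The 19 islands of cytosolic ribosomal proteins stood at 1.07 (0.915 to 1.25), with Rps28/Ndufa7 at 50 against 23 reads. The upper bounds of these 3 intervals do not exceed 1.36, the lower bound for all shared-end islands.

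Mitochondrial genes lay between. The 31 islands of mitochondrial ribosomal proteins had a pooled fold of 1.18 (1.03 to 1.37), with Mrpl41/Pnpla7 at 45 against 13 reads and Klc4/Mrpl2 at 42 against 9. Mrps12/Sars2, a pair in which both proteins serve mitochondrial translation, had 35 against 13. The 37 islands of oxidative phosphorylation genes stood at 1.37 (1.20 to 1.57), close to 1.39 for all. The 13 islands of tRNA synthetases stood at 1.49 (1.18 to 1.90), the 24 of splicing factors at 1.27 (1.11 to 1.45) and the 6 of proteasome subunits at 1.17 (0.870 to 1.59). The interval of the proteasome subunits also includes 1, and it reaches above 1.36, the lower bound for all shared-end islands.

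RNA polymerase and zinc finger genes had the highest pooled folds of the lists with over 10 islands. The 12 islands of polymerase subunits stood at 1.66 (1.29 to 2.15). Polr3c/Rnf115, at a subunit of RNA polymerase III, had 29 against 5 reads (2.90, 1.11 to 9.61), and Polr1c/Yipf3 had 34 against 8. The 25 islands of Zfp genes, which encode zinc finger proteins, stood at 1.66 (1.40 to 1.98), with Zfp142/Bcs1l at 40 against 6 reads (3.34, 1.41 to 9.64) and Fiz1/Zfp524 at 41 against 9. Both lists' intervals overlap that of all shared-end islands.

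Histone genes form clusters in which short genes share ends on both sides, and near-identical copies may share reads. Pooled, their 13 islands stood at 1.29 (1.08 to 1.54). The island at H2ac21/H2ac20/H2bc21 on chromosome 3, at 96218601 to 96222200, is the one with 79 against 21 reads given above, and that at H4c9/H2ac11/H2bc11 on chromosome 13 had 57 against 11 (2.60, 1.35 to 5.49). H4c1/H3c1, also on chromosome 13, had 75 against 34 (1.10, 0.727 to 1.71). At other sets of 3 genes, Psme3ip1/LOC115486880/Rspry1 had 48 against 21 reads, Senp3/Tnfsfm13/Tnfsf13 had 43 against 12 and Atf5/Nup62/Il4i1b had 35 against 14.

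NF-kB and cytokine signalling genes were at shared-end islands in 4 of 29 cases (13.8%), beside 10.8% of all genes. Among those with a close neighbour it was 4 of 15 (26.7%), beside 33.5% of all such genes. Stat5b and Stat5a, which encode signal transducers of cytokine receptors, lie head to head on chromosome 11, and the island at 100858001 to 100859400 between and beside their starts had 16 against 2 reads, a fold of 4.01 (0.942 to 35.9). Nfkbib, an NF-kB inhibitor gene, meets the deacetylase gene Sirt2 head to head with 21 against 18 reads (0.584, 0.296 to 1.16). Nfkbie, its relative, precedes Slc35b2 with 18 against 10. Pooled, the 3 islands stood at 0.918 (0.578 to 1.48). Psmb9 and Tap1, which make and transport peptides for MHC class I, meet head to head in an island with 29 against 22 reads (0.660, 0.366 to 1.21). The only Wnt list gene was Pygo2, which encodes a partner of the beta-catenin complex. Its start follows the end of Shc1, and the island had 18 against 5 reads (1.80, 0.645 to 6.21).

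Promoter windows of head-to-head pairs with an island also differed from other windows in how often they held some motifs. The ETS, YY1, NRF1 and TCGCGAGA motifs hold CpG themselves, and CCAAT and the TATA box do not. No share was taken at matched CpG, so a difference beyond CpG was not tested. The ETS motif CCGGAAG was in 380 of 1314 windows (28.9%, 26.5 to 31.5), against 20.1% of windows of genes whose start alone lay at an island, 18.2% of those of head-to-head pairs without an island and 11.9% of all. The YY1 motif was in 3.35%, 2.02%, 0% (0 of 521, upper limit 0.706%) and 0.972% of these windows in the same order. TCGCGAGA was in 5.02%, 2.82%, 3.26% and 1.53%, and CCAAT in 41.3%, 43.0%, 39.7% and 39.2%. The NRF1 motif was in 2.82%, 2.64%, 0.960% and 1.33%. The TATA box had its lowest share, 4.64%, at head-to-head pairs with an island, beside 6.59%, 7.29% and 13.3%. The 39 head-to-head islands with TCGCGAGA in either window had medians of 35 and 16 reads and a pooled fold of 1.11 (1.01 to 1.22), and the other 619 had 23 and 8 reads and 1.41 (1.37 to 1.46). That motif was taken from stretches chosen for high reads, so its islands' reads are a description. Windows of close pairs share bases, and a match is a description of letters and not a bound site.

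The motif of TCF/LEF factors was less frequent in these windows than over all promoters. CTTTGAT or CTTTGAA was in 65 of the 1314 windows (4.95%, 3.84 to 6.26), in 5.94% of windows whose start alone lay at an island, in 5.57% (3.76 to 7.90) of those of head-to-head pairs without an island and in 7.83% of all. The first interval includes both the 5.94% and the 5.57%. Those windows are also the richer in G and C, with medians of 62.0%, 61.3% and 56.3%. Of the 658 head-to-head islands, the 54 with the motif in either window had medians of 25 and 9.5 reads and stood at a pooled 1.23 (1.12 to 1.35). The other 604 had 24 and 8 reads and 1.40 (1.36 to 1.44). The windows cover the bases next to a start and not the whole island, so the motif elsewhere in an island was not analysed here.

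At the 1 kb limit, the farther of the nearest 2 genes was 998.5 bp from the midpoint at Llgl2/Tsen54 (7 against 1 reads), and 997.5 bp at Flii/Mief2 (24 against 12) and Faap100/Nploc4 (11 against 3). Just outside, it was 1000.5 bp away at Gm20783/LOC108167694 (73 against 31), 1001.5 bp at Ydjc/Ccdc116 (8 against 0) and 1005.5 bp at Dcun1d5/Dync2h1 (12 against 4).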

How the data were processed

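The submitters' processing notes name Bowtie2 2.4.2, mm10 and SICER 2.0. Window, gap and duplicate settings were not given in the sources used here. Per the file headers, the authors deposited raw read counts of each island in 2 columns, peak and control, the fold as a ratio of both, and the p-value and FDR as deposited by the authors' caller. Columns name no sample. Starts and ends in the table count from 0 and were raised by 1.

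Gene ends came from a RefSeq table of GRCm38.p6, strand and promoter windows from RefSeq sequences, which covered 17492 of 21887 protein-coding genes 1990 of the 2360 at shared-end islands and none on chromosome 18. For 10583 genes the window's start was the gene coordinate. Exons were not used. The scaling factor, 1.997, was recomputed from 18419 islands with a control read. Pooled folds have exact conditional binomial (Clopper-Pearson) 95% intervals, shares have Clopper-Pearson intervals, and medians order-statistic intervals, in Python 3.11.15 with scipy 1.17.1. The interval and gene-end code was tested on simulated data. With 1 library per group no test was run. Islands named were those with the most reads (8), highest fold with at least 20 peak-library reads (8), lowest fold, most control reads, lowest FDR or 3 genes (5 each), up to 4 per gene list, and 3 on each side of the distance limit. Members, lists and rules were chosen with earlier results of these data known. Some islands that these rules name are not reported here.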

Additional observations from a re-analysis of the deposited data

How the results depend on the processing

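No paired analysis was possible because each group has 1 library and the read columns carry no sample name. Of 108 values under alternatives, 65 stayed within the 95% interval of the reported value (for the island count, within 1.5 times) and 43 moved; none changed side of a fold of 1. In all 8 alternatives of islands and genes, shared ends had the lower pooled fold and the higher median of peak-library reads, and in 7 the higher median of control-library reads. Removing or lowering the upper limit on peak-library reads could not change the shared ends, since none of their islands lay above either limit. Removing it could not change islands at 1 end either. The values of these alternatives are among the 65 that stayed, and they are no check. The intervals of the folds overlapped with gene ends within 500 bp and with at least 20 peak-library reads. With at least 20 peak-library reads the control medians were equal.

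Shared-end islands numbered 724 with gene ends within 500 bp and 716 with at least 20 peak-library reads, fewer by construction. The pooled fold was then 1.42 at shared ends against 1.44 at 1 end, and 1.38 against 1.41. With the gene end inside the island it was 1.38 against 1.44. At 500 bp 51.5% against 52.8% had an FDR of 0.05 or less, and with the end inside 52.1% against 53.4%. With the end inside, medians were 25 and 9 reads at shared ends and 21 peak-library reads at 1 end. With at least 20 reads, medians were 29 and 10 at shared ends and 28 and 10 at 1 end, and 54.2% of shared-end islands passed the FDR. Equal totals gave pooled folds of 1.08 and 1.14, no scaling 2.77 and 2.91. At an FDR of 1e-05, 9.36% and 14.0% passed. Per kb, medians were 14.4 and 5.00 at shared ends and 13.1 and 4.29 at 1 end.

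The following were chosen after the data were seen. Starts alone gave 1.44 at 1 end, and head-to-head islands a median of 24 peak-library reads. Head-to-head pairs with starts apart had an island in 35.8% of cases with islands at an FDR of 0.05 or less, 49.3% with at least 20 reads, 51.9% within 500 bp, 78.5% with ends at most 100 bp apart and 82.1% with CpG-rich promoters. In the same order, head-to-tail pairs stood at 9.98%, 9.98%, 8.43% and 32.1%. Tail-to-tail pairs stood at 0.477% with at least 20 reads, 0.572% within 500 bp and 3.35% at 100 bp. Lone starts stood at 15.4%, 15.0%, 21.2% and, with CpG-rich promoters, 53.3%. The order head to head, lone start, head to tail, tail to tail held under the FDR, read and 500 bp alternatives, but at 100 bp head-to-tail pairs, at 32.1% (21.9 to 43.6), stood above lone starts at 29.0%, with an interval that includes it. Depth limits single islands: a median of 7 control reads leaves wide intervals. The cause of each move was not tested.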
